A study of Homo sapiens with 6 samples.

Results

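The nucleolar factors of ribosome biogenesis were taken here as the genes whose symbols start with NOP, UTP, RRP, NOL or NOC followed by a number, together with RRS1, BOP1, PES1, WDR12, FBL, DKC1, NCL, NHP2 and GAR1. The rule uses names and no measured value. It found 46 symbols of the 10779 in either deposited table, which are 45 genes because UTP11 in one table is UTP11L in the other. Of these, 39 have a translational efficiency (of 8121 genes listed), 43 have a ribosome occupancy for each codon (of 9570 transcripts) and 36 stand in both tables under the same symbol. All samples are HEK293 cells, a human embryonic kidney line, labelled as treated with a control siRNA. They consist of 3 ribosome profiling libraries (ribosome protected fragments, RPFs) and 3 libraries of total RNA depleted of rRNA. Per the methods, the drug cycloheximide, which holds ribosomes in place, was given to the living cells for some minutes before lysis. The wash and the lysis buffer also contained it, the latter at 100 µg/ml. All samples had it, so its effect on the profiles was not tested. There is no second condition, so the factors were compared with each other and with all other genes. The labels do not say whether the 3 replicates are separate cultures, so p-values measure the spread between these samples only. Of 7 markers set for HEK293 cells, 6 were listed in the tables and PAX2 was not. Of 6 markers of other cell types, COL1A1 stood in both tables and ACTA2 in the translational efficiency table.

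Ribosomes are built in the nucleolus, where RNA polymerase I makes a long precursor that is folded, modified and cut into the mature rRNAs. Small nucleolar RNPs (snoRNPs) guide most of the modifications, the C/D class placing methyl groups on ribose and the H/ACA class making pseudouridine. Proteins named UTP, together with several NOL, NOP and RRP proteins, form the SSU processome around the precursor of the small subunit, while the PeBoW complex of PES1, BOP1 and WDR12 and many other factors mature the large subunit. Several of these proteins carry acidic runs, lysine-rich tails or stretches of glycine and arginine, as nucleolin and fibrillarin do.

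Most of the factors had a higher deposited translational efficiency than the typical gene, but the group ran from the 4.75th to the 98.6th percentile of all genes. Translational efficiency is the deposited ratio of RPFs to total RNA in each replicate. Of the 39 factors listed, 29 lay above the median of all genes and 10 below it (limma, FDR 0.05), so that 74.4% were higher and 25.6% lower. Over all 8121 genes 44.7% were called higher and 44.6% lower, since replicates differed little and nearly every gene could be told from the median. The median efficiency of the factors was 0.832, with a range from 0.0834 for NOL12 to 7.91 for RRP15, and that of all genes was 0.385. The occupancy measure described below set the factors apart less, with 26 of 43 (60.5%, against 50%) above the median of all transcripts. Most of the factors' mRNAs were also abundant. Relative mRNA abundance, read from the worth of a single RPF in each transcript and set to 1 for the median transcript, was above 1 in 39 of 43 factors (90.7%, against 50% of all transcripts), with a median of 2.76. Among other ribosome biogenesis genes, a list described below, it was above 1 in 72 of 73 (98.6%), with a median of 3.71.

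**Figure D1:**
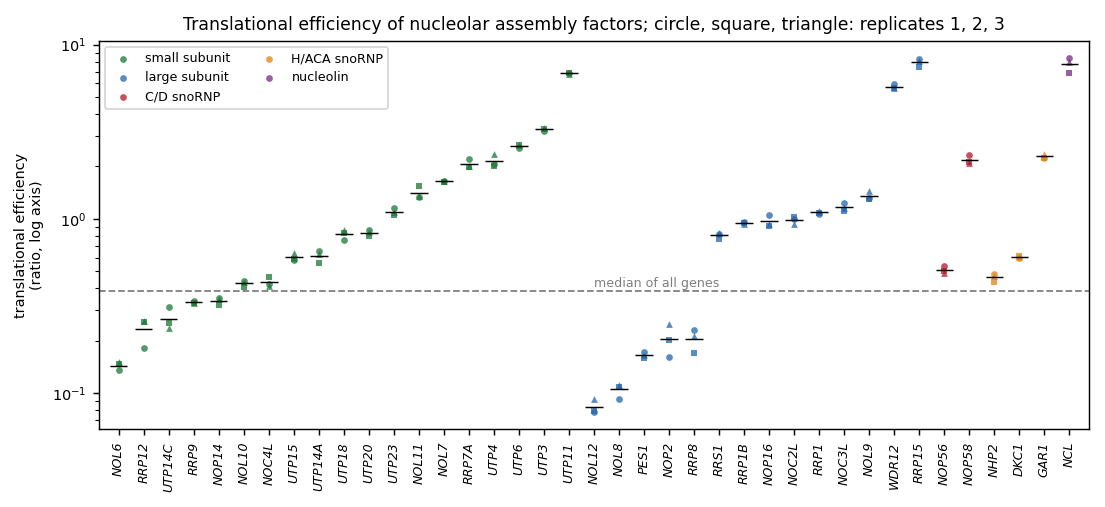
Translational efficiency (ratio of RPFs to total RNA, log axis) of the 39 factors listed, by role, with replicates 1, 2 and 3 as circles, squares and triangles, the mean as a black line and the median of all genes (0.385) as a dashed line. The factors run from NOL12 at 0.0834 to RRP15 at 7.91, and 29 of 39 lie above the dashed line.

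The core proteins of the C/D snoRNP were not translated alike. FBL (fibrillarin, the methyltransferase) has no translational efficiency in the table. NOP56, a scaffold protein of this snoRNP, had 0.540, 0.505 and 0.492 in replicates 1, 2 and 3. NOP58, its partner and paralog, had 2.34, 2.12 and 2.08, well above every value of NOP56. Against the median of all genes, NOP56 was higher by 0.41 ± 0.05 (SE) and NOP58 by 2.48 ± 0.06 on the log2 scale (adjusted p = 0.00101 and 2.37e-06). The ratio of NOP58 to NOP56 was 4.26, and it lay between 4.19 and 4.34 in the replicates. With 3 values a gene an exact permutation test cannot go below p = 0.1, so no test is given between subunits. In-frame reads per codon, which are not divided by mRNA, were 86.5 for FBL, 69 for NOP58 and 31.8 for NOP56.

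The 4 proteins of the H/ACA snoRNP differed in both efficiency and mRNA abundance. DKC1 (dyskerin, the pseudouridine synthase) had efficiencies of 0.594, 0.612 and 0.605. NHP2 had 0.480, 0.437 and 0.472, the lowest of the 3 proteins listed, and GAR1 had 2.25, 2.25 and 2.36, so the 3 genes did not overlap. All lay above the median of all genes, by 0.26 ± 0.05 (SE) on the log2 scale for NHP2, 0.64 ± 0.05 for DKC1 and 2.55 ± 0.05 for GAR1. GAR1 exceeded NHP2 4.94-fold (4.70 to 5.15 in the replicates). Its mRNA was near the median of all transcripts, with a relative abundance of 0.902 against 28.3 for NHP2, so GAR1 had 22.4 in-frame reads per codon and NHP2 had 59. NOP10, the smallest of the set at 65 codons with its stop codon, has no translational efficiency and carried 143 reads per codon. Among the 3 proteins with an efficiency, its order was the reverse of the order of mRNA abundance, DKC1 having 7.09. Total RNA divides the efficiency and also gives the abundance, so these orders are not independent. A caution applies to NHP2, since 41.8% of the 30-mers of its coding sequence also occur in a pseudogene, NHP2P1.

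Of the 19 small subunit factors listed, 14 lay above the median of all genes and 5 below. These were 73.7% and 26.3%, against 44.7% and 44.6% of all genes. UTP11 was the highest with 6.85, 6.91 and 6.79, followed by UTP3 with 3.20, 3.28 and 3.31. Both are subunits of the SSU processome, and they lay 4.13 ± 0.05 (SE) and 3.06 ± 0.05 above the median on the log2 scale (adjusted p = 9.08e-07 and 1.31e-06). UTP6 (mean 2.61), UTP4 (2.15), RRP7A (2.07), NOL7 (1.65), NOL11 (1.41) and UTP23 (1.10) followed. UTP20, the very large scaffold protein of 2786 codons, reached 0.832 ± 0.0338 (SD, n = 3). At the other end, NOL6 had 0.136, 0.147 and 0.150, a log2 difference of -1.35 ± 0.05 from the median (adjusted p = 1.03e-05). RRP12 (0.181, 0.256 and 0.259), UTP14C (0.313, 0.252 and 0.237), RRP9, the protein specific to the U3 snoRNP (0.334 ± 0.00592, SD, n = 3), and NOP14 (0.338 ± 0.0172) were also below. NOL10 and NOC4L lay only 0.15 and 0.17 above the median (adjusted p = 0.0372 and 0.0391), and both lost the call without any 1 of the replicates, with values from 0.11 to 0.21. NOP14 and RRP9 lost the call without replicate 2 (adjusted p = 0.116 and 0.0545) and without replicate 3 (0.0844 and 0.0726).

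UTP14A and UTP14C are paralogs, the second being an intronless copy. UTP14A had 0.655, 0.561 and 0.630, above UTP14C in every replicate and 2.30-fold higher on average (2.09 to 2.66). The occupancy table gave the opposite order, 0.0668 per codon for UTP14A and 0.119 for UTP14C. All 30-mers of the UTP14C coding sequence (100%) also occur in annotated transcripts of ALG11, which overlaps it on the same strand, so its values are uncertain in both tables. Of the 30-mers of UTP14A, 24.1% occur in other genes, UTP14C among them, so reads of the paralogs may not be fully separated.

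The large subunit factors held both ends of the range. Of 14 listed, 9 lay above the median of all genes and 5 below, with a median efficiency of 0.958. The shares were 64.3% and 35.7%, against 44.7% and 44.6% of all genes. RRP15 had 8.30, 7.41 and 8.01, the highest mean of all the factors, and lay 4.33 ± 0.06 (SE) above the median on the log2 scale (adjusted p = 1.04e-06). The 5 below were NOL12 (0.0783, 0.0790 and 0.0927), NOL8 (0.0931, 0.108 and 0.112), PES1 (0.173, 0.160 and 0.165), NOP2 (0.162, 0.203 and 0.248) and RRP8 (0.231, 0.170 and 0.214). NOP2 and RRP8 are both methyltransferases of rRNA. NOL12 and NOL8 did not reach the lowest value of PES1 in any replicate, while NOP2 and RRP8 overlapped each other. The values of NOL12 and NOP2 are uncertain, because 96.6% and 100% of their 30-mers occur in annotated genes that overlap them on the same strand. Between these ends, RRS1, which brings the 5S RNP into the large subunit, had 0.824, 0.766 and 0.826, and RRP1B, NOP16, NOC2L, RRP1, NOC3L and NOL9 had means from 0.949 to 1.35. RRP1 and RRP1B, a pair of paralogs, differed by 1.15-fold (1.12 to 1.19).

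PES1 and WDR12, which act in 1 complex, showed the widest gap of the complexes compared. WDR12 had 5.92, 5.67 and 5.61, which is 34.5-fold above PES1 (34.1 to 35.4 in the replicates). BOP1, the third protein, has no translational efficiency. The occupancy table showed a much smaller gap. Occupancy per codon was 0.0918 for WDR12, 0.0372 for PES1 and 0.0273 for BOP1, so that WDR12 exceeded PES1 2.46-fold. In-frame reads per codon were 35.2 for WDR12, 25 for PES1 and 10.3 for BOP1, and WDR12 exceeded PES1 1.41-fold. Relative mRNA abundance was 4.25, 7.47 and 4.2 in the same order. How the efficiency ratio was computed could not be read from the labels or methods, and why the tables differ was not tested. BOP1 is uncertain because 84.8% of its 30-mers occur in another annotated gene, KM-PA-2.

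NCL (nucleolin, an abundant protein that binds the rRNA precursor) combined a high efficiency with an abundant mRNA. Its efficiency was 8.34, 6.88 and 7.91, and the mean of 7.71 lay at the 98.6th percentile of all genes. It carried 273395 in-frame reads in its coding sequence, the most of all factors, at 385 per codon and a relative mRNA abundance of 18.6.

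Of 85 symbols listed for other ribosome biogenesis genes, 79 had a translational efficiency. Older and newer symbols in the list were not merged, so a gene may appear under several symbols or be a factor itself. Of the 79, 56 (70.9%, against 44.7% of all genes) lay above the median of all genes. Below it lay 16 (20.3%, against 44.6%), and 7 were not called. The median of the 79 was 0.756, close to the 0.832 of the factors. DDX52, an RNA helicase of the small subunit, had 17.4, 14.1 and 19.1, and PWP2 had 11.4, 10.7 and 10.3. NPM1 (nucleophosmin) had 4.39, 4.21 and 4.55. SENP3, a SUMO protease needed for the large subunit, was the lowest with 0.0603, 0.0636 and 0.0611. Cytosolic ribosomal proteins, which are assembled in this pathway, had a median of 1.84. Of these, 68 of 74 (91.9%, against 44.7% of all genes) lay above the median.

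The second table gave normalized ribosome occupancy, in-frame RPFs for each codon divided by the abundance of the mRNA, with the replicates combined. The low values of each transcript were sums of whole multiples of 3 steps, the worth of 1 read in each library, and in this way reads of the 3 libraries were recovered. They came to 26791969, 21537714 and 14423750 in-frame reads. The libraries were not assigned to replicate numbers here. The 43 factors held from 103 reads in their coding sequence (NOL4) to 273395 (NCL), with a median of 10593, and the next lowest was NOL4L with 309. Neither NOL4 nor NOL4L has a settled role in ribosome assembly. The CV of occupancy over the 3 libraries had a median of 6.26% in the factors and was at most 15%, so it exceeded 20% in 0 of 43 (9.15% of all transcripts did). All transcripts held fewer reads, with a median of 1792 in the CDS, and the CV was not compared at equal depth. The depth of the total RNA libraries is not known from the tables.

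Occupancy per codon of the coding sequence (CDS) lay above the median of all transcripts (0.045) in 26 of 43 factors (60.5%, against 50%), and the median of the factors was 0.0507. RRP15 was the highest at 0.353, followed by GAR1 at 0.273 and NCL at 0.232. The lowest were RRP9 at 0.0168, RRP8 at 0.0216 and NHP2 at 0.0230. When the reads were not divided by mRNA, 39 of 43 factors exceeded the median of all transcripts in reads per codon (90.7%, against 50%). So did 72 of 73 other ribosome biogenesis genes (98.6%).

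Across genes the tables ran in parallel, but single factors parted from the trend. Spearman's coefficient between efficiency and occupancy was 0.688 over 6912 genes and 0.644 over the 36 factors in both tables. Both measures rest on the same RPF and total RNA libraries, and genes are not independent replicates. RRP15 and NCL stood above the 95th percentile in both. NOC2L was at the 79.4th percentile of efficiency and the 24.3rd of occupancy, RRP1B at the 78.6th and 24.2nd, and RRP1 at the 81.9th and 32.3rd. UTP14C went furthest the other way, at the 35.3rd percentile of efficiency and the 85.1st of occupancy. Of the 30-mers of NOC2L, 34.5% also occur in a pseudogene, NOC2LP1.

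**Figure D2:**
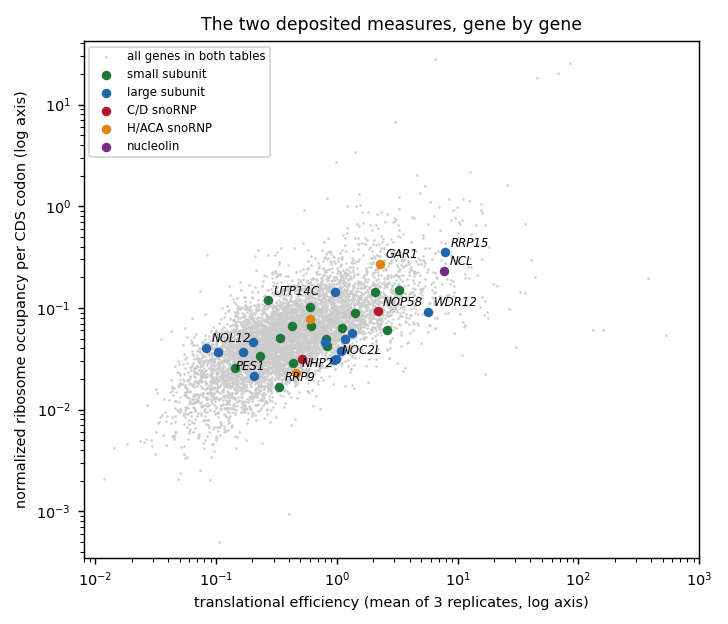
Translational efficiency (mean of 3 replicates, log axis) against normalized ribosome occupancy per codon of the CDS (log axis) for the 6912 genes in both tables (grey) and the 36 factors among them (coloured by role). RRP15 and NCL lie at the upper right, NOL12 at the far left of the factors, and UTP14C above the trend.

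The 7 factors in the occupancy table alone were NOP9, FBL, NOP10, NOL4, NOL4L, BOP1 and UTP11L, and those in the efficiency table alone were NOL7, UTP4 and UTP11. UTP11L and UTP11 are names of the same gene, which had an occupancy of 0.206 per codon and 96.7 reads per codon. Other older symbols were not looked up, so some of these absences may be differences of naming. NOP9, an RNA-binding protein of the small subunit, had an occupancy of 0.0368 from 2873 reads, and FBL had 0.0624 from 27857 reads.

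Along the CDS, ribosomes were spread unevenly in opposite directions in different factors. The first and last 75 codons were compared in the 42 factors with at least 150 codons. Occupancy was higher in the first window in 22 of them (52.4%, against 49.7% of all transcripts). The first window was higher in each of the 3 libraries in 18 factors (42.9%, against 40.3%) and the last window in 19 (45.2%, against 41.4%), so the libraries gave 1 direction for 37 of 42 and the group as a whole was not tilted. RRP1 had 5.65 times more occupancy at the start than at the end, with 5.54, 5.61 and 5.78 in the libraries. NOP2 followed with 3.89 (3.12 to 5.28) and NOL12 with 3.69 (3.26 to 4.41). GAR1 had 3.10 (2.65 to 3.6). In the opposite direction, NOL9, a polynucleotide kinase, had a ratio of 0.132 (0.0976 to 0.207), FBL 0.169 (0.165 to 0.172) and NOP9 0.240 (0.225 to 0.250). In FBL and RRP1 the 3 libraries lay within a few percent of each other.

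**Figure D3:**
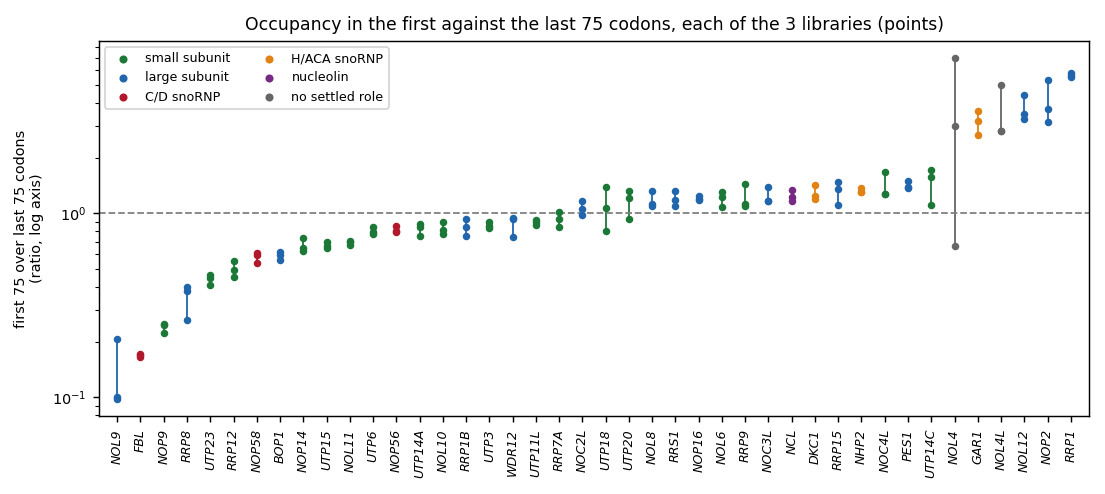
Ratio of occupancy in the first 75 to that in the last 75 codons of the CDS (log axis) in the 42 factors with at least 150 codons, 1 point for each of the 3 libraries, coloured by role. NOL9, FBL and NOP9 lie far below the dashed line at 1 and RRP1, NOP2 and NOL12 far above, while NOL4, with 103 reads, spreads from 0.667 to 7.

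The stretches of glycine and arginine that several of these proteins carry were nearly empty of RPFs. A stretch was a run of windows of 10 codons in which at least 7 encoded glycine or arginine, a definition made after the profiles had been seen. Stretches occurred in 7 factors, and in 0 of 7 was the occupancy above that of the other codons of the same CDS. The same held for nearly all mRNAs, as only 6.04% of 878 transcripts with such stretches exceeded 1 and their median ratio was 0.0686, so the low values are not particular to nucleolar factors. In FBL the stretch took 76 codons (6 to 81) and had a ratio of 0.158 ± 0.00774 (SD over 3 libraries) from 1299 reads. In NCL it took 54 codons near the end (648 to 701) and had 0.0503 ± 0.00302 from 1112 reads. In GAR1, stretches of 25, 35 and 54 codons at both ends made up 114 of 218 codons, with 0.0729 ± 0.00388 from 363 reads. RRP1 had 0.155 ± 0.0211 and NOP9 had 0.0378 ± 0.0436 from 2 reads, and NOL4L had 0 reads in 10 codons. RRS1 was the highest with 0.647 ± 0.0685, and within it stretches at codons 312 to 323 and 355 to 364 had ratios of 0.0803 and 1.83. Most of the first 75 codons of FBL, low as described above, lie within its stretch. GC content was higher in the stretches of FBL, NCL and GAR1 than in their other codons. It was 68.4% against 54.3% in FBL, 65.4% against 45.1% in NCL and 62.0% against 37.8% in GAR1. In RRS1, stretches at codons 331 to 340 and 355 to 364 both had 66.7% GC, with ratios of 0.149 and 1.83. The part of GC content in the result was not tested. In the stretches of the 7 factors, some 30-mers occur more than once or in another gene. Their share was 18.8% in RRS1, 1.23% in NCL, 0.639% in GAR1 and 0 in the other 4 factors.

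For FBL, GAR1 and NCL, the first window of 10 codons wholly of glycine and arginine is shown. These windows lie in long, nearly empty stretches with many reads around them. FBL had 14 such windows, with ratios to the rest of the CDS from 0.0145 to 0.0906. GAR1 had 17 (0.0118 to 0.0585) and NCL had 3 (0.0164 to 0.0212). Capitals mark codons for glycine or arginine, which here are all 10, and coordinates are those of GRCh37, with the sequence read along the mRNA.
FBL: AGAGGTCGTGGACGAGGAGGAGGTGGAGGC
GAR1: CGAGGTGGAGGCGGCGGTGGAGGCGGCGGC
NCL: GGAGGACGAGGTGGTGGTAGAGGAGGCCGA
The FBL codons 41 to 50 lie in exon 2 (chr19:40331288-40331317, minus strand) and had an occupancy of 0.00496 per codon against 0.0642 in the rest of the CDS. The GAR1 codons 30 to 39 lie in exon 2 (chr4:110737408-110737437, plus strand) and had 0.0167 against 0.285. The NCL codons 664 to 673 lie in exon 13 (chr2:232320149-232320178, minus strand) and had 0.00473 against 0.236, from 78 reads.

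**Figure D4:**
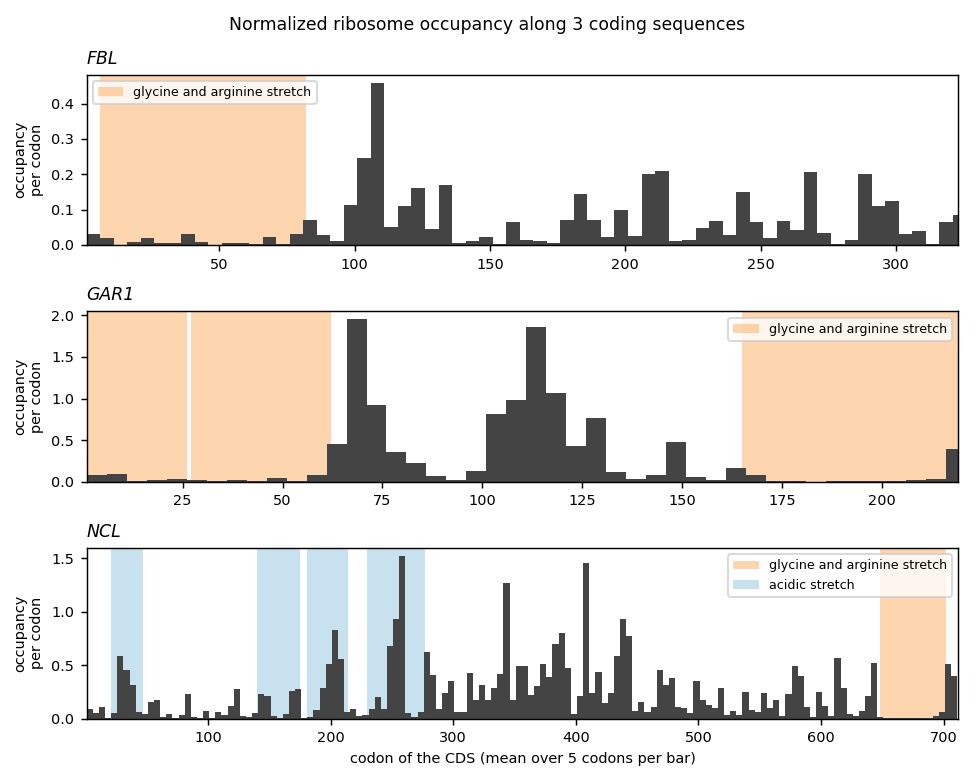
Normalized ribosome occupancy along the CDS of FBL, GAR1 and NCL (bars, mean over 5 codons), with stretches of glycine and arginine codons in orange and acidic stretches in blue. The orange parts are nearly empty in all 3 genes, with ratios of 0.158, 0.0729 and 0.0503 to the other codons, while the last 2 acidic stretches of NCL are well occupied.

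Basic stretches, with at least 6 of 10 codons for lysine or arginine, showed the opposite picture. Their occupancy exceeded that of the other codons in 20 of 29 factors (69%, against 58.8% of 2180 transcripts), and the median ratio was 1.21 in the factors and 1.21 in all transcripts. NOP16, a factor of the large subunit, had the highest ratio, 3.21 ± 0.164 (SD over 3 libraries), ahead of NOL9 with 2.98 ± 0.180 and NOL12 with 2.85 ± 0.692. The 2 basic stretches of NOP16 went opposite ways, as codons 3 to 12 had a ratio of 0.275 and codons 19 to 29, which hold its highest codon (22), had 5.87. DKC1 had 2.23 ± 0.241 from 4935 reads, and its lysine-rich tail held stretches at codons 465 to 481 and 494 to 510 with ratios of 3.57 and 2.25. The lowest were RRP7A with 0.152 ± 0.0300, PES1 with 0.441 ± 0.0573 and UTP14A with 0.725 ± 0.0340. The base composition of these stretches differed. GC content was 38.0% in the basic stretches of DKC1 against 49.0% in its other codons, and 64.6% against 60% in RRP7A. In NOP16, which had the highest ratio, it was 58.7% against 52.5%. Its part was not tested. Over the 29 factors, basic stretches had a median GC content of 42%.

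The most basic 10 codons of DKC1, a tail rich in AAG codons, are set beside those of RRP7A to show a well occupied and an empty example. Capitals mark codons for lysine or arginine.
DKC1: AAGAAGAAGAAGAAGAAGAAGAAAgcaAAA
RRP7A: gagAGGgagAGACGGAAGCGCagcCGAAAA
The DKC1 codons 498 to 507 (exon 15, chrX:154005089-154005118, plus strand) had an occupancy of 0.193 per codon against 0.0752 in the rest of the CDS, from 1221 reads. The RRP7A codons 227 to 236 (exon 6, chr22:42910161-42910190, minus strand) had 0.00659 against 0.148, from 18 reads. Of the 30-mers of RRP7A, 50.4% also occur in a pseudogene, RRP7BP.

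Acidic stretches, with at least 6 of 10 codons for aspartate or glutamate, went either way. In 14 of 27 factors (51.9%) they were occupied above the other codons, against 63.1% of 2645 transcripts. The lowest ratios were 0.365 ± 0.0678 in RRP1, 0.415 ± 0.194 in NOP9 and 0.420 ± 0.0144 in UTP3. The highest were 1.98 ± 0.284 in UTP18 and 2.06 ± 0.194 in RRP1B, besides 7.54 ± 1.70 in NOL4L, which rests on 54 reads. NCL has the longest acidic part of all the factors, 141 codons in 4 stretches, with a ratio of 1.42 ± 0.105 over all 4. The stretches differed among themselves. Codons 21 to 46, 181 to 213 and 230 to 276 had ratios of 1.33, 1.64 and 1.84, while codons 140 to 174 had 0.712. In NCL, 48 windows of 10 codons were wholly acidic, and their ratios to the rest of the CDS ran from 0.0611 to 6.54 with a median of 1.55. The lowest and the highest of them, picked for these values, are shown beside the most acidic runs of UTP18 and UTP3. Capitals mark codons for aspartate or glutamate.
NCL, lowest: GAGGAGGATGAGGAGGATGACGAGGACGAG
NCL, highest: GACGACGAAGATGATGAAGATGATGATGAT
UTP18: GATGATGAAagtGAAGAGGATGAAGATGAT
UTP3: GACGAGGAGGATggcGAGGAGGAGGAGGAG
In NCL, codons 154 to 163 (exon 3, chr2:232326375-232326404, minus strand) had an occupancy of 0.0144 per codon against 0.236 in the rest of the CDS, while codons 249 to 258 (exon 4, chr2:232325417-232325446) had 1.41 against 0.216. The run of UTP3, codons 71 to 80 in exon 1 (chr4:71554605-71554634, plus strand), had 0.0115 against 0.152. The run of UTP18, codons 207 to 216 across the junction of exons 4 and 5 (chr17:49346262-49350748, plus strand, the intron included), had 0.1 against 0.0483. GC content was 60% in the lowest and 40% in the highest window of NCL, 66.7% in the run of UTP3 and 36.7% in that of UTP18. Other stretches went the other way. Codons 98 to 108 of NOC2L had 63.6% GC and a ratio of 6.76, and codons 74 to 90 of NOC3L had 41.2% and 0.335. The part of GC content was not tested.

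**Figure D5:**
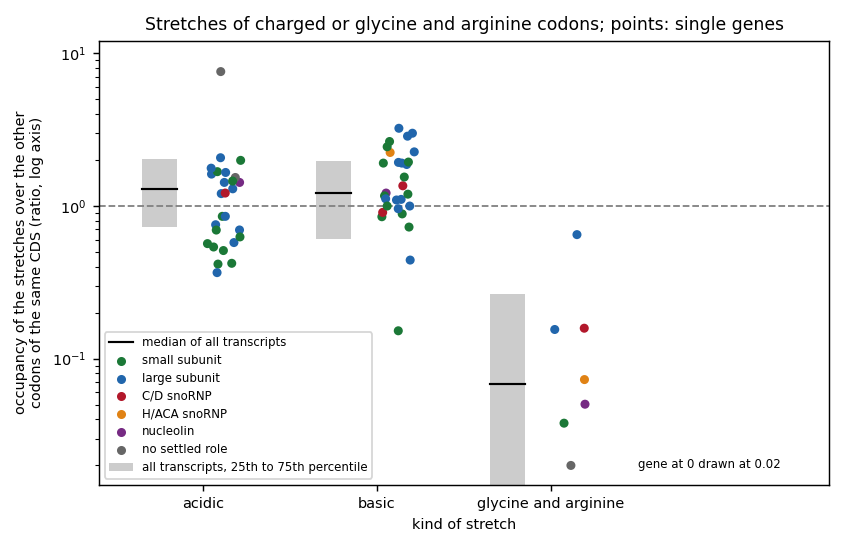
Occupancy of acidic, basic and glycine and arginine stretches divided by that of the other codons of the same CDS (log axis), 1 point for each factor coloured by role, beside the 25th to 75th percentile (grey bar) and the median (line) of all transcripts. Points scatter around 1 for acidic stretches, lie mostly above 1 for basic ones (20 of 29) and all below 1 for glycine and arginine stretches (0 of 7 above).

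Single codons took their largest shares of the reads in a few short coding sequences. The share of the highest codon had a median of 3.94% in the factors and 4.95% in all transcripts. In 0 of 43 factors did a codon hold over 20% of the CDS occupancy (2.61% of all transcripts had one). This comparison was not matched for reads or CDS length. The highest shares were 15.5% at codon 31 of RRP7A (14.1% to 16.8% in the 3 libraries), 10.7% at codon 11 of NOP10 (8.79% to 12.9%) and 9.25% at codon 9 of NOL12 (8.36% to 9.62%). The lowest was UTP20 with 0.971% over its 2786 codons, followed by RRP12 with 1.33% and NOC3L with 1.46%. The surroundings of the 3 highest codons, and of the highest codon of DKC1 in its lysine-rich tail, are shown with that codon in capitals.
RRP7A: attccaatcaagttcTCTgaaaagcaacag
NOP10: tacctcaacgagcagGGAgatcgagtctat
NOL12: aacaagaagaagaagCGAgatggtgacgac
DKC1: aagaaggacaagaagGCCaaagctggtctg
Of the 3 highest codons, only that of NOL12 directly followed AAG codons. That of DKC1 did so too, but it was picked for its place in the lysine-rich tail. How often this occurs over all factors was not counted. The RRP7A codons 26 to 35 lie in exon 2 (chr22:42914122-42914151, minus strand) and the codon in capitals held 1629 reads. Those of NOP10 are codons 6 to 15 in exon 1 (chr15:34635230-34635259, minus strand), with 978 reads at the highest. Those of NOL12 are codons 4 to 13 in exon 1 (chr22:38082409-38082438, plus strand), with 95 reads at the highest. Those of DKC1 are codons 474 to 483 in exon 14 (chrX:154004543-154004572, plus strand), with 881 reads at the highest, 3.48% of its CDS. The start codon of all transcripts had 2.52 times the mean of its own CDS and the stop codon 0.0141 times.

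Upstream of the start codon, in-frame RPFs were few in most of the factors and dense in a small number. In the 23 factors with a 5′UTR of at least 34 codons, the last 17 codons lay above the median of all transcripts (0.00195) in 11 (47.8%, against 50%). UTP15 was the highest at 0.0284, ahead of NCL at 0.0229 and NOL8 at 0.0142, and 6 factors, among them NOP56 and NOP14, had 0. Over the whole 5′UTR, occupancy per codon exceeded 10% of that of the CDS in 9 of 43 factors (20.9%, against 28.2%). RRS1 stood out, as its 31 codons upstream held 279 reads and 107% of the occupancy per codon of its CDS, with the most, 73 reads, at codon 12 before the start. NOL6 followed with 46.9% from 54 reads. UTP14C had 33.6% from 722 reads, but its whole 5′UTR is shared with transcripts of ALG11. In NCL 673 reads lay upstream, 242 of them at codon 9 before the start, and made 3.96% of the density of its CDS. In NHP2 189 of 257 reads lay at codon 26 before the start, and in NOP10 226 of 239 at the codon next to it. WDR12, with a 5′UTR of 246 codons, held 451 reads at 5.13% of its CDS density. Bases around the start codon were much like those of other mRNAs, with A or G at 3 bases before it in 39 of 43 factors (90.7%, against 86%) and G directly after it in 26 (60.5%, against 53.3%).

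Downstream of the stop codon, reads above 1% of those of the CDS were found in 2 of 43 factors, FBL and NOP16 (4.65%, against 8.72% of all transcripts). FBL had 281 in-frame reads in the 35 codons of its 3′UTR, on 14 codons and with the most, 45, at codon 10 after the stop. NOP16 had 105, of which 22 were at codon 67. NOP56, PES1, WDR12 and BOP1 had 0 reads there. A count of 0 is limited by the reads in the CDS, which were 7713 in BOP1 and 18941 in NOP56.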

How the data were processed

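Ribosome profiling and total RNA libraries of HEK293 cells (3 of each) were used through 2 tables of the whole series. Per the labels, RPF and total RNA of a number came from the same lysate. The authors removed adapters and PCR duplicates, aligned RPFs to hg19 transcripts, placed each read on a codon, kept in-frame reads, normalized them for library size and divided them by TPM. The deposited occupancy table holds these values, combined over replicates, for each codon. Translational efficiency was deposited as a ratio (RPFs over total RNA, linear scale) per replicate. How it was computed could not be read from the labels or methods. The submitters' processing notes name cutadapt 1.16, Bowtie 1.1.2, TopHat2 2.1.1 and HTSeq 0.9.1, while the methods name Hisat2 for total RNA.

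The efficiencies were put on a log2 scale after adding 0.01. A limma model (version 3.58.1, R 4.3.3) compared every gene with the median over the table. P-values were adjusted by Benjamini-Hochberg over all 8121 genes, at an FDR of 0.05, without filtering low values. Fold changes on this scale understate those of low genes. The fit was tested on simulated data. Replicates correlated at 0.987 to 0.990 and the SD over replicates had a median of 0.10 on the log2 scale.

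For 9454 of 9570 transcripts (98.8%), the steps of the low values (relative tolerance 1e-08) gave whole reads of 3 libraries, with 13 of 2781818 values above 0 left unsplit. The split was likewise tested on simulated data. Reads are counts of sequenced fragments, so spreads between libraries cover these samples only. In 31 transcripts, UTP20 among them, a CDS list broken over lines was rejoined, and the codon at the break was set to missing. Measures from occupancy have no test.

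Coding sequences were those of GENCODE 44 on GRCh37, the hg19 build, matched by symbol and CDS length for 9072 transcripts (94.8%) and all 43 factors. Shared sequence is the percentage of 30-mers of a CDS found in annotated transcripts of any other gene, wherever it lies, read along those transcripts. Python 3.11.15, numpy 2.4.6, pandas 2.3.3 and matplotlib 3.10.9 were used.

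The factors, the lists and the tests were chosen with earlier results of these data known. Genes named were those of the C/D, H/ACA and PeBoW complexes, NCL, RRS1, the 5 highest and 5 lowest in efficiency, the 3 highest and 3 lowest in each occupancy measure and those missing from a table. Others, and the glycine and arginine stretches, were chosen after their values were seen.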

Additional observations from a re-analysis of the deposited data

How the results depend on the processing

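Counts of factors and genes above or below the median efficiency stayed within 1.5 times under all 7 alternatives tried. With the mean of all log2 values as the reference, which lies 0.17 above the median, 26 factors were higher and 10 lower, and over all genes 3295 were higher and 4026 lower. The fit with the replicate block (the median of each replicate removed) called 29 factors higher and 10 lower, as without it, and changed no call of a factor. Each ratio was already taken within a replicate. Without any 1 replicate, 27 factors were higher, and 8 to 10 were lower. Of 273 single-gene results over the alternatives, 258 kept their direction and call, 14 lost the call (NOC4L, NOL10, NOP14, RRP9 and NHP2) and 1 reversed. With the mean as reference, NOL10 reversed to -0.01 on the log2 scale (adjusted p = 0.822), NOC4L was at 0.00 (0.963) and NHP2 at 0.10 (0.138). A filter on mean efficiencies of at least 0.05 also ended the calls of NOL10 (adjusted p = 0.0524) and NOC4L (0.0532). The cause was not tested.

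Counts from occupancy moved by over 1.5 times in these cases, where the definition changed how many factors were measured. With 5′UTRs of at least 67 codons, 4 of 8 factors lay above the median. Acidic stretches were occupied above the other codons in 23 of 36 factors with at least 5 of 10 codons and in 8 of 21 with at least 7. With at least 6 it was 14 of 27, so the share itself fell as the definition became stricter. The share over all transcripts was not counted at the other settings. Basic stretches were so in 11 of 16 with at least 7. With at least 6 of 10 codons for glycine or arginine, a setting added after seeing the data, 1 of 15 factors exceeded 1. Without any 1 library, added likewise, the first 75 codons were higher in 21 to 22 of 42 factors, the 5′UTR counts stayed at 11 and the CDS counts at 26. Basic stretches gave 21 to 22 of 29. As a median over codons, the first window was higher in 17 of 42. Taken in the same way, CDS occupancy lay above the median of all transcripts in 33 of 43. With windows of 50 codons the first was higher in 17 of 42. Shares over all transcripts were not counted at these settings. Depth limits NOL4 and NOL4L, with 103 and 309 reads.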
